A study of Mus musculus with 6 samples.

Results

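Immediate early genes are switched on within minutes of a stimulus, without new protein synthesis, and their transcripts are short-lived. The 10 genes described here are Fos, Fosb and Fosl2 of the FOS family, Jun and Junb of the JUN family, the related factor Atf3, the zinc finger factor Egr1, the immediate early response genes Ier2 and Ier3, and the phosphatase gene Dusp1. They were taken by symbol from a list whose rule used no measured value, although the list was drawn up with earlier results of these data known. All 10 were found among the 55291 genes of the deposited table, and all 10 passed the filter on low values, a level of at least 1 TPM in at least 3 libraries, which left 13788 genes for testing.

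FOS and JUN proteins pair through leucine zippers to form AP-1, a transcription factor that growth factor, cytokine and stress kinases activate, and ATF3 can join such pairs. EGR1 is induced through serum response factor and ETS partners and acts in monocyte and macrophage differentiation. DUSP1 removes phosphates from p38 and JNK kinases and so limits the same signals. In macrophages these genes respond to microbial products and cytokines, and they are also well known to be induced when a tissue is dissociated for cell isolation.

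Polyadenylated RNA was sequenced from tumour-associated macrophages of mouse hepatocellular carcinoma, in 3 libraries labelled TREM2+ and 3 labelled TREM2-, after the lipid-sensing receptor TREM2. The comparison asks how the 2 macrophage groups of the same tumour type differ. The sources used here do not give the tumour model, mouse strain, age, sorting gate or dissociation method, or say whether replicates were separate animals, so p-values measure only the spread between these libraries, which may be technical. Levels are given as TPM, transcripts per 1000000, after each library was rescaled to a total of 1000000.

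Depth ranged from 11545979 to 20034255 recovered reads per library, and 3 reads, the most that a count of 0 allows, amounted to between 0.150 and 0.260 reads in 1000000. This covers counting error only. The 8 members with recovered reads, all but Junb and Ier2, had at least 65 reads in every library. Trem2 itself was at 39.6, 40.8 and 30.7 TPM (TREM2+) against 16.9, 20.5 and 21.1 TPM (TREM2-), without overlap, but missed the threshold (log2 fold change 0.89 ± 0.22, SE, adjusted p = 0.0855 in limma). A family of repeat transcripts around Gm10800 took between 0.43% and 24.6% of the TPM of a library and mitochondrially encoded transcripts between 2.42% and 12.3%, with a wide range within both groups. The macrophage genes Cd68, Csf1r and Adgre1 were present in every library, from 1169 to 2081 TPM, 172 to 390 TPM and 149 to 333 TPM. Neutrophil genes were present too: S100a8 lay between 2294 and 6186 TPM.

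The promoters of Ier3, Fos, Fosb and Dusp1 are shown because Ier3 was the member called different between the groups, Fos and Dusp1 varied most within them among the abundant members, and Fosb carries a match to the site of EGR factors. Each is the 250 bases before the RefSeq transcription start (GRCm38.p6), on the gene's strand, at chr17:35821463-35821712 (Ier3, plus), chr12:85473640-85473889 (Fos, plus), chr7:19310046-19310295 (Fosb, minus) and chr17:26508473-26508722 (Dusp1, minus). Capitals mark motif matches.
Ier3: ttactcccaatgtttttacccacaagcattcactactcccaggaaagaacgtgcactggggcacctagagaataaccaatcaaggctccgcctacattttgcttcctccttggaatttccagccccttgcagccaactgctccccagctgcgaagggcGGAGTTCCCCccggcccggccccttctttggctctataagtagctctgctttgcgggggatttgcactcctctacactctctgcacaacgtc
Fos: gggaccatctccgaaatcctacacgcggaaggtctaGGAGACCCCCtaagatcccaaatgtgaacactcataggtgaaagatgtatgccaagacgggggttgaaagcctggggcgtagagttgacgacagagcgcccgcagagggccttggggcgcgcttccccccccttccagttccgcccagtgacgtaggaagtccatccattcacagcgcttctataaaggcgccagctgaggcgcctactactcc
Fosb: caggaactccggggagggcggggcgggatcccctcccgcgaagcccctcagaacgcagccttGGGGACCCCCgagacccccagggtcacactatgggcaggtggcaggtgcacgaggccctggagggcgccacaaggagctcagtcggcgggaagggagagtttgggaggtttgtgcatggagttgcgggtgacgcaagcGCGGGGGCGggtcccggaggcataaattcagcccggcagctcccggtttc
Dusp1: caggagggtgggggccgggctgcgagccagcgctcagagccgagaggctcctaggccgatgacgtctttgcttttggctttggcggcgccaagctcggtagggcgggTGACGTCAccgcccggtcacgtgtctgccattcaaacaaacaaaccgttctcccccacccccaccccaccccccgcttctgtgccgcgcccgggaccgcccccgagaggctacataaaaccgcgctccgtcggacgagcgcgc

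Motifs were searched on both strands in the upstream windows of the 8 members with an entry among the promoters that could be printed. The cyclic AMP response element TGACGTCA was found in Dusp1, 135 bases before the start, and in 1.55% of all 32851 promoter windows of that length. The EGR site GCGNGGGCG was found in Fosb and Fosl2 and in 4.70% of all windows. The AP-1 site TGANTCA (6.75% of all windows) and the CArG box of serum response factor (1.47%) were found in none of the 8 windows, which says only that these letters are not there. The NF-kB site, a motif added after the values were seen, was found in Ier3, Fos, Fosb and Fosl2 and in 3.90% of all windows. It overlapped no other motif. Its presence in Ier3 did not set that gene apart from Fos, Fosb and Fosl2, whose levels were not called different. These matches describe sequence and were tied to no binding measurement.

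The immediate early genes other than Fosb and Fosl2 were abundant in both groups, and 9 of the 10 did not pass the test. Ier3 was higher in the TREM2+ libraries, and 0 of the 10 were lower. The test was limma on log2(TPM + 1), two-sided, with p-values adjusted over all 13788 genes, and it called 2.05% of all genes higher and 0.37% lower at an adjusted p under 0.05. At an unadjusted p under 0.05, 2 of the 10 (Ier3 and Egr1) were higher and 0 lower, beside 7.45% and 5.34% of all genes tested. The median log2 fold change of the 10 genes was 0.17, beside -0.09 over all genes tested. Together the 10 transcripts made up 1.21%, 1.25% and 0.74% of the TPM in TREM2+ replicates 1, 2 and 3 and 0.53%, 1.40% and 0.77% in TREM2- replicates 1, 2 and 3, so the sums of the groups overlapped.

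**Figure D1:**
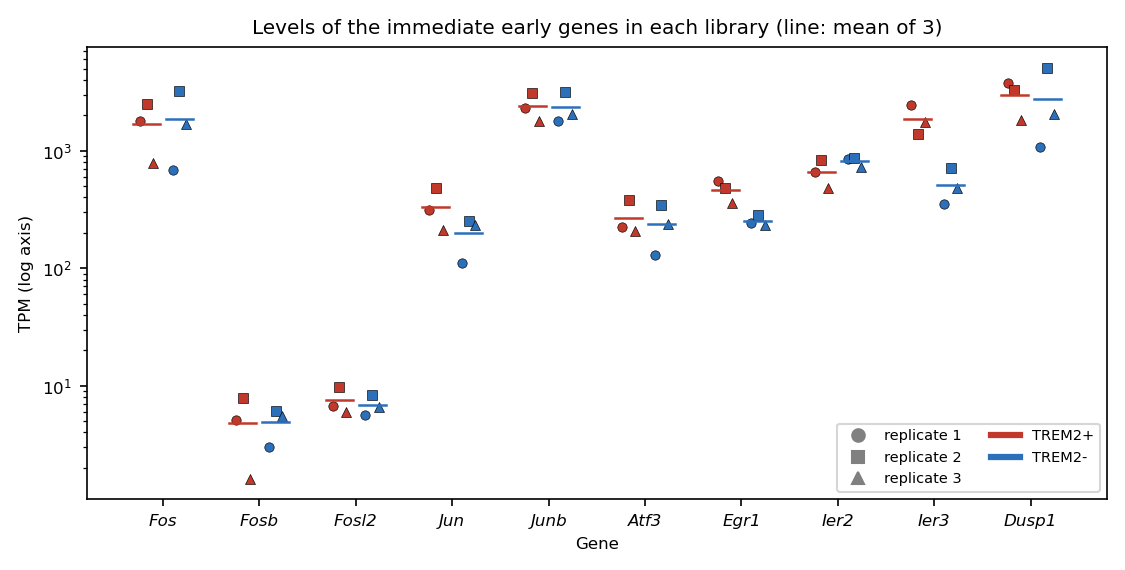
Level of each of the 10 genes in TPM (log axis) in 3 TREM2+ libraries (red) and 3 TREM2- libraries (blue); symbols give the replicate number and lines the mean of 3. Ier3 and Egr1 are the genes whose groups do not overlap, and TREM2- replicate 2 (blue square) is the highest TREM2- library for all 10.

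Fos, the founding partner of AP-1 (chromosome 12, 85473890 to 85477273, mm10), stood at 1791, 2485 and 792 TPM in TREM2+ replicates 1, 2 and 3 and at 687, 3255 and 1674 TPM in TREM2- replicates 1, 2 and 3. The lowest and the highest of the 6 values were both TREM2- libraries, and the TREM2+ values lay between them. Within the TREM2- group the highest library held 4.74 times the level of the lowest. The log2 fold change was -0.03 ± 0.58, with a 95% interval from -1.35 to 1.29, so a difference of 2-fold in either direction lay within the interval.

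Fosb, a close paralog of Fos, was low: 5.11, 7.80 and 1.62 TPM against 3.04, 6.10 and 5.48 TPM. Between 65 and 347 reads stood behind each TREM2+ value. Fosl2, the FOS family member usually seen at steadier levels, was at 6.78, 9.83 and 5.95 TPM against 5.63, 8.40 and 6.65 TPM. The groups overlapped in both, and the log2 fold changes were -0.13 ± 0.44 and 0.10 ± 0.26. Fosl1, the remaining family member, stood at 3.51, 2.97 and 0.996 against 1.27, 4.22 and 1.68 TPM. Thus Fos made up nearly all FOS family transcript in every library.

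Among the JUN family, Junb was the most abundant, at 2307, 3099 and 1779 TPM against 1801, 3145 and 2070 TPM. The groups spanned nearly the same range (log2 fold change 0.04 ± 0.30, 95% interval -0.65 to 0.73). Jun, the classical partner of Fos (chromosome 4, 95049034 to 95052222), was at 312, 479 and 209 TPM against 110, 253 and 232 TPM. TREM2+ replicates 1 and 2 were above every TREM2- library, and TREM2+ replicate 3 was inside their range. The log2 fold change of Jun was 0.76 ± 0.39 with an adjusted p of 0.498, and its 95% interval ran from -0.13 to 1.64. Jund, which is usually expressed without stimulation, was at 213, 235 and 127 against 140, 233 and 160 TPM. Junb overlaps Prdx2, Jun overlaps Junos, Atf3 overlaps Gm24748 and Dusp1 overlaps Gm8225 and Ergic1, each on the opposite strand. Without a stated strand setting the reads of such pairs cannot be told apart. Dusp1 also overlaps AC122252.4 and AC122252.1 on its own strand.

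Fos and Junb together made up most of the transcript of the 6 leucine zipper members. Fos took 38.5%, 38.5% and 26.4% of their summed TPM in the TREM2+ libraries, against 25.1%, 46.4% and 39.6%. Junb took 49.6%, 48.0% and 59.4% against 65.8%, 44.8% and 49.0%. The share of Fos was lowest in TREM2- replicate 1 and TREM2+ replicate 3, the libraries with the lowest Fos levels, and the groups overlapped in both shares.

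Atf3, a stress-induced factor that often acts as a repressor of inflammatory genes, was at 225, 377 and 206 TPM in the TREM2+ libraries. In the TREM2- libraries it was at 130, 344 and 236 TPM, with overlap (log2 fold change 0.24 ± 0.38). Ier2, a small nuclear protein gene, was the member with the most negative difference, at 656, 832 and 484 against 848, 872 and 728 TPM. Only TREM2+ replicate 2 reached the range of the TREM2- libraries, and the log2 fold change of -0.34 ± 0.25 did not pass (adjusted p = 0.696, 95% interval -0.92 to 0.23).

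Dusp1, whose product shuts off p38 and JNK, had the highest mean level of the 10. It was at 3803, 3295 and 1816 TPM in TREM2+ replicates 1, 2 and 3 and at 1079, 5106 and 2074 TPM in TREM2- replicates 1, 2 and 3. As with Fos, the extremes were both TREM2- libraries, with 4.73 times between them. The log2 fold change was 0.33 ± 0.53, and the 95% interval from -0.87 to 1.53 was the widest after that of Fos.

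Ier3, an early response gene tied to cell survival and NF-kB signalling (ENSMUSG00000003541.6, protein coding, chromosome 17, 35821684 to 35822923), was at 2462, 1389 and 1758 TPM in TREM2+ replicates 1, 2 and 3. It was at 350, 717 and 478 TPM in TREM2- replicates 1, 2 and 3. Every TREM2+ library was above every TREM2- library. The means were 1870 ± 545 and 515 ± 186 TPM (SD, n = 3), a log2 fold change of 1.88 ± 0.32 (3.68-fold, 95% interval 1.15 to 2.61, limma adjusted p = 0.0207). An exact permutation test over the 6 libraries gave p = 0.1, two-sided, the smallest that 3 against 3 allow. The groups likewise did not overlap on the high side in 9.07% of all genes tested and on the low side in 7.62%, beside 2 and 0 of the 10 members.

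The direction of Ier3 was the same in all 19 other settings tried, with log2 fold changes from 1.63 to 2.15, but the call was kept in 10. Leaving out TREM2+ replicate 1 gave adjusted p = 0.0582, TREM2+ replicate 3 adjusted p = 0.0597, TREM2- replicate 1 adjusted p = 0.0707 and TREM2- replicate 3 adjusted p = 0.104 in limma, and the call was kept without either replicate 2.

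Ier3 took a larger part of the summed level of the 10 genes in the TREM2+ libraries. It made up 20.3%, 11.2% and 23.7% of the summed TPM of the 10 genes in the TREM2+ libraries, against 6.67%, 5.13% and 6.18%. This share does not depend on how libraries are scaled, and the groups did not overlap in it. It was singled out after the values were seen, in the libraries where Ier3 was called, so it largely restates that difference. The call itself was lost with median-of-ratios scaling (adjusted p = 0.061 in limma) and quantile normalization (0.069). The summed TPM of the other 9 genes was 9654, 11063 and 5655 against 4905, 13271 and 7257, and there the TREM2+ libraries lay within the range of the TREM2- libraries. TREM2+ replicate 2 had the highest sum of the other 9 genes and the lowest Ier3 level of its group. Within the TREM2- group, Ier3 and that sum ranked the 3 libraries in the same order.

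**Figure D2:**
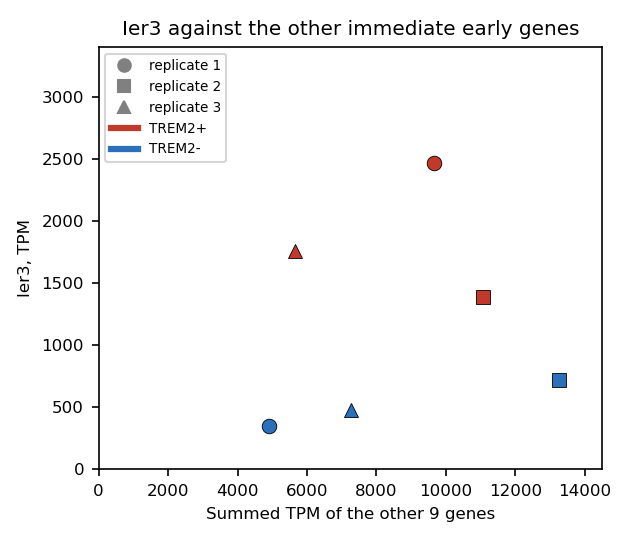
Ier3 level (vertical axis, TPM) against the summed TPM of the other 9 genes (horizontal axis) in the 6 libraries, TREM2+ in red and TREM2- in blue, symbols by replicate number. The TREM2+ libraries lie at 1389 TPM of Ier3 or above and the TREM2- libraries at 717 TPM or below, while the sums of the other 9 genes overlap.

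Egr1 (chromosome 18, 34859823 to 34864984) was the other member whose groups did not overlap. It was at 549, 478 and 361 TPM in TREM2+ replicates 1, 2 and 3 and at 242, 282 and 231 TPM in TREM2- replicates 1, 2 and 3. The TREM2- libraries lay close together, and each TREM2+ library was above them. The means were 463 ± 94.7 and 252 ± 26.4 TPM (SD, n = 3), a log2 fold change of 0.86 ± 0.23 (95% interval 0.34 to 1.39), and the adjusted p of 0.117 in limma missed the threshold. Over the 19 other settings the log2 fold change lay between 0.73 and 1.03 and the adjusted p between 0.0151 and 0.614. The gene was called with library weights, with limma's voom on recovered reads and without the repeat family and mitochondrial genes.

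Its family member Egr2, also a factor of macrophage activation, was at 101, 75.5 and 56.5 TPM against 43.4, 52.3 and 27.4 TPM. The groups did not overlap, and the log2 fold change of 0.91 ± 0.31 had an adjusted p of 0.222 in limma. Egr3 was near the filter, between 0.49 and 1.38 TPM in all libraries, and Egr4 was not tested.

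**Figure D3:**
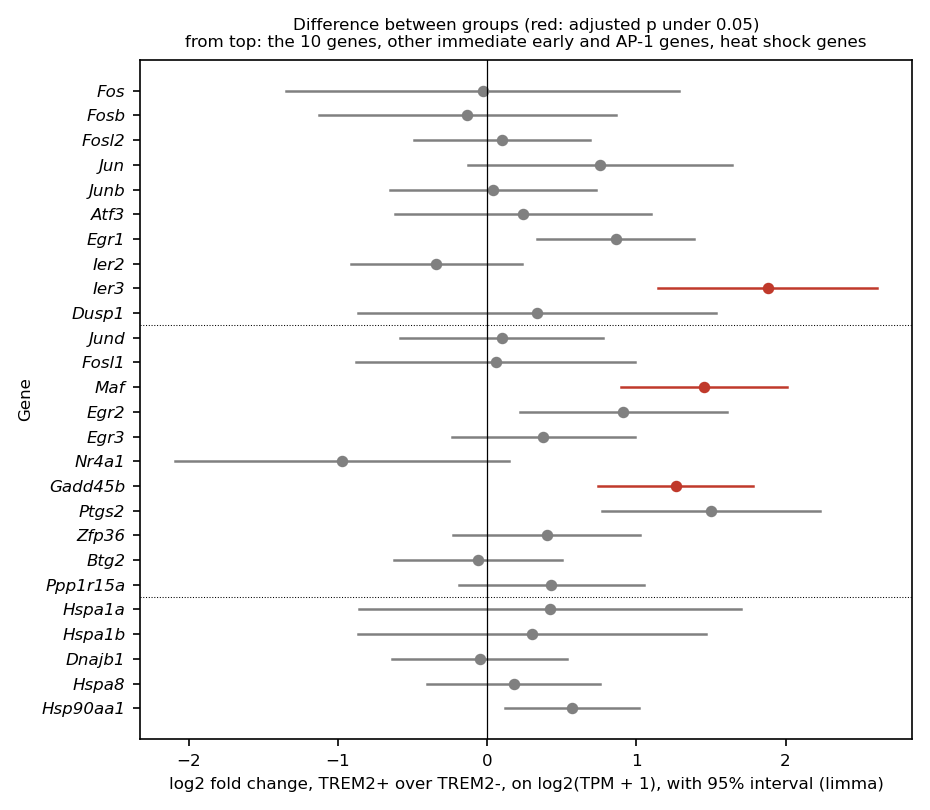
log2 fold change (TREM2+ over TREM2-, on log2(TPM + 1)) with its 95% interval from limma for the 10 genes (top), other AP-1 and immediate early genes (middle) and heat shock genes (bottom); red marks an adjusted p under 0.05. Of the 10 genes, Ier3 (1.88) is the called one; among the others shown, Maf and Gadd45b are.

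The libraries of a group differed strongly in these genes. Within the TREM2- group, replicate 2 held the highest level of all 10 members, whereas it was the highest for 20.02% of all genes tested and for 33.4% of the 1124 tested genes with a mean of at least 100 TPM. Replicate 1 held the lowest level of 8 of the 10, against 11.3% of all genes. Within the TREM2+ group, replicate 3 was the lowest for 9 of 10, but it was also the lowest for 65.2% of all genes, and replicate 2 was the highest for 7, against 47.1% of all genes. The median within-group SD on the log2 scale was 0.53 for the 10 genes and 0.31 for all genes tested. It reached 0.997 for Fos and 0.89 for Dusp1, and 4.004% and 5.25% of the genes with a mean of at least 100 TPM had a larger one. At the other end, Egr1 had 0.24. These are descriptions, and the members share the library and its composition.

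**Figure D4:**
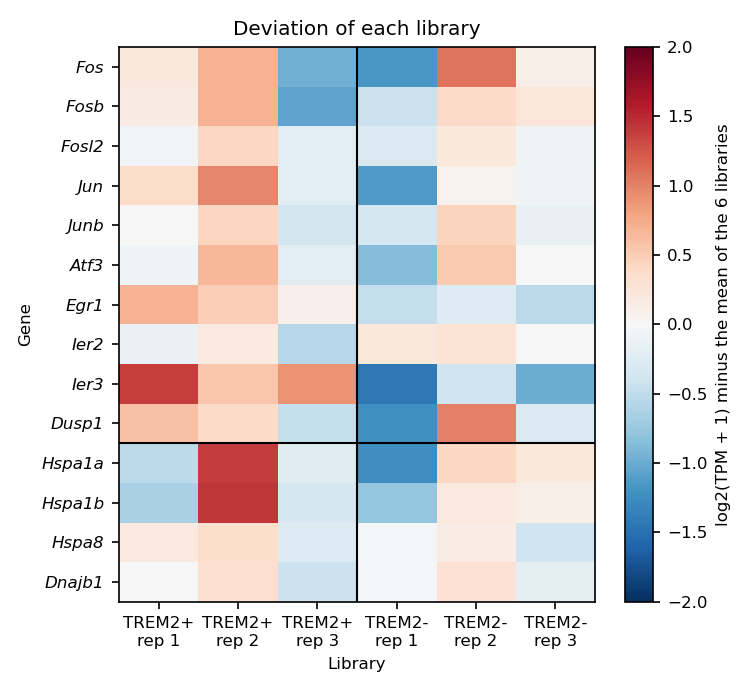
Deviation of each library from the mean of all 6 on the log2(TPM + 1) scale (colour) for the 10 genes (rows above the line) and 4 heat shock genes (rows below it). TREM2- replicate 2 is above and TREM2- replicate 1 below the mean in most rows of the 10 genes, while Ier3 and Egr1 separate by group.

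Other features of the libraries also varied, in the TREM2- group along with this order. Mitochondrially encoded transcripts took 10.02%, 3.78% and 6.72% of the TPM in TREM2+ replicates 1, 2 and 3 and 12.3%, 2.42% and 2.96% in TREM2- replicates 1, 2 and 3. TREM2- replicate 2, with the most Fos and Dusp1, had the lowest of these shares, and TREM2- replicate 1, with the least, had the highest. In the TREM2+ group the order differed: replicate 3, lowest for most members, had the middle share. Summed over the 8 monocyte markers, levels were 30145, 14128 and 3618 TPM against 13341, 74183 and 21197 TPM, and most of this was Chil3, a gene of monocytes and alternatively activated macrophages, at 69640 TPM in TREM2- replicate 2. In the TREM2+ group the sum was highest in replicate 1, not in replicate 2. Their part in the spread of the immediate early genes was not tested.

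Over the 6 libraries, the genes most like Fos by Pearson's r of log2(TPM + 1), among 5858 others with a mean of at least 10 TPM, were Gm6377 (0.98), Ubb-ps (0.97), Nt5dc2 (0.96), Wfdc21 (0.96) and Crispld2 (0.96). Ubb-ps is a pseudogene of a ubiquitin gene, so its reads may belong to its near-identical copy. Of the members, Junb (0.94), Dusp1 (0.92) and Atf3 (0.90) were close to Fos, and Ier3 (0.19), Egr1 (0.27) and Ier2 (0.48) were not. The genes most like Ier3 were the chemokine genes Ccl12 (0.997) and Cxcl2 (0.99), the protease gene Asprv1, and the ferritin light chain gene Ftl1 with its pseudogene Ftl1-ps1. Egr1 had an r of 0.92 with Ier3. All such values rest on 6 points that share depth and composition, and part of the likeness to Ier3 is the difference between the groups itself.

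Cxcl2, a neutrophil attractant, was at 2035, 1023 and 1682 TPM against 227, 587 and 280 TPM. Its libraries stood in the same order as those of Ier3 within the TREM2+ group. In the TREM2- group, too, replicate 2 was the highest and replicate 1 the lowest in both genes. Cxcl2 was picked for its likeness to Ier3 over these same libraries, so the shared order followed largely from that choice.

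Of 31 other immediate early genes tested, 1 rose, 0 fell and 30 did not pass, with a median log2 fold change of 0.40. At an unadjusted p under 0.05, 12 of the 31 were higher and 1 was lower, beside 7.45% and 5.34% of all genes tested. The groups did not overlap on the high side in 9 of the 31 and on the low side in 1, beside 9.07% and 7.62% of all genes tested. The gene that rose was Gadd45b, a stress sensor that activates p38 through MTK1, at 198, 200 and 189 TPM against 105, 67.0 and 74.7 TPM (log2 fold change 1.26 ± 0.23, adjusted p = 0.0252 in limma). Dropping TREM2- replicate 1 kept the call, and dropping any of the other 5 libraries gave adjusted p-values from 0.0665 (TREM2- replicate 2) to 0.101 (TREM2- replicate 3). Ptgs2, the inducible cyclooxygenase, was at 86.9, 74.6 and 96.9 against 20.6, 49.9 and 25.0 TPM and had an adjusted p of 0.0506. Nr4a1, an orphan receptor gene often read as a sign of recent stimulation, had a log2 fold change of -0.97 ± 0.49, at 142, 235 and 68.3 against 194, 484 and 186 TPM with overlap. Sgk1, a kinase gene of salt and stress responses, was at 85.3, 116 and 65.2 against 53.7, 45.7 and 44.0 TPM, without overlap (adjusted p = 0.162 in limma). Csrnp1 was at 47.2, 48.8 and 42.6 against 14.6, 37.5 and 19.7 TPM, also without overlap (adjusted p = 0.189 in limma). Voom on recovered reads called Gadd45b, Sgk1 and Ptgs2 higher.

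Among usual genes of the dissociation response, the groups overlapped in Zfp36, Btg2, Ppp1r15a, Nr4a1, Egr3, Jund, Fosl1, Hspa1a, Hspa1b, Dnajb1 and Hspa8. The groups did not overlap in Egr2 and Hsp90aa1, both higher in the TREM2+ libraries, beside 9.07% of all genes tested on the high side. They did not overlap either in Gadd45b, Ptgs2, Sgk1 and Csrnp1, which were named because their p-values were the smallest of their list. The mRNA-decay factor gene Zfp36 was at 992, 1302 and 745 TPM against 590, 889 and 800 TPM. The antiproliferative gene Btg2 was at 689, 876 and 582 against 655, 910 and 669 TPM. Ppp1r15a, which restores translation after stress, was at 283, 341 and 265 against 168, 317 and 196 TPM. Their log2 fold changes were 0.40 ± 0.28, -0.06 ± 0.25 and 0.43 ± 0.27. In Btg2 and Ppp1r15a TREM2- replicate 2 was again the highest TREM2- library, as it was in Zfp36.

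Heat shock and chaperone genes, the other arm of the dissociation response, held 0 called genes among 17 tested by limma and 0 by voom. Their median log2 fold change was 0.18. At an unadjusted p under 0.05, 2 of the 17 were higher and 0 lower, beside 7.45% and 5.34% of all genes tested. The groups did not overlap on the high side in 3 of the 17 and on the low side in 0, beside 9.07% and 7.62% of all genes tested. The inducible Hsp70 genes Hspa1a and Hspa1b, near-identical copies whose reads counting may split, were at 20.2, 78.6 and 24.5 against 11.7, 39.1 and 34.1 TPM and at 29.1, 125 and 36.2 against 26.5, 53.0 and 49.96 TPM. TREM2+ replicate 2 was the highest of the 6 libraries in both, and TREM2- replicate 1 the lowest. The constitutive Hspa8 was at 714, 798 and 519 against 618, 696 and 474 TPM. Dnajb1 was at 60.2, 76.1 and 44.1 against 58.7, 73.2 and 52.3 TPM, with overlap. Hsp90aa1, at 125, 131 and 107 against 85.2, 77.5 and 80.4 TPM, did not overlap between the groups but had an adjusted p of 0.245 in limma. Neither did Hsp90ab1, at 390, 364 and 356 against 303, 215 and 230 TPM, nor Hspe1 (adjusted p = 0.279 and 0.469 in limma). Without a library of cells kept from dissociation, how much of the level of any of these genes arose during handling was not tested.

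Maf, a leucine zipper factor of macrophage identity rather than of the early response, rose. It was at 11.0, 8.66 and 6.77 against 2.75, 2.60 and 2.24 TPM, and the groups did not overlap (log2 fold change 1.45 ± 0.25, adjusted p = 0.0194 in limma). Maf lost its call without TREM2+ replicate 1 (adjusted p = 0.102 in limma), TREM2+ replicate 2 (0.0606) or TREM2- replicate 3 (0.0901). Maff, a small relative, was at 7.95, 6.49 and 5.82 against 3.29, 3.88 and 2.58 TPM, without overlap (adjusted p = 0.125 in limma).

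Among upstream kinase and factor genes, NF-kB feedback genes and other MAP kinase phosphatase genes, no gene passed in limma. Limma called 0 of 21 upstream kinase and factor genes (median -0.08, 0 at an unadjusted p under 0.05, and 0 by voom) and 0 of 14 NF-kB feedback genes (median 0.02, 1 higher and 1 lower unadjusted, 0 by voom). The inhibitor gene Nfkbia was at 1862, 1302 and 1076 against 787, 1062 and 827 TPM, without overlap but with an adjusted p of 0.355 in limma. Nfkb1 went the other way, at 7.84, 9.12 and 6.73 against 23.9, 10.5 and 11.7 TPM, also without overlap (adjusted p = 0.324 in limma). The groups did not overlap on the high side in 1 of the 14 and on the low side in 1, beside 9.07% and 7.62% of all genes tested. Of 10 other MAP kinase phosphatase genes limma called 0 (1 higher and 2 lower before adjustment). Voom called Dusp16 higher and Dusp22 lower. Dusp16 was at 5.11, 5.38 and 5.25 against 3.25, 2.68 and 2.77 TPM, and Dusp22 at 12.5, 17.1 and 9.27 against 29.5, 24.6 and 20.1 TPM.

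Markers of other cells differed between the groups in the same libraries as Ier3. In a bulk library, fewer cells of a type and less RNA per cell cannot be told apart. Of 9 endothelial markers, 6 were called higher, with summed levels of 170 to 250 TPM in the TREM2+ and 18.3 to 37.1 TPM in the TREM2- libraries. Of 6 basophil and mast cell markers 3 were called lower (list sum 17.01 to 26.7 against 117 to 214 TPM). Of 8 monocyte markers Ly6c2 was called lower. Among 7 dendritic cell markers Ccr7 was called lower, at 20.3, 20.9 and 16.7 against 58.1, 41.8 and 37.8 TPM (list sum 54.9 to 71.6 against 93.7 to 252 TPM). Among 8 hepatocyte markers Trf was called higher, at 1037, 1308 and 1020 against 509, 482 and 556 TPM (list sum 1221 to 1563 against 599 to 1279 TPM). Trf made up most of that sum in every library but TREM2- replicate 1. The groups overlapped in the other 7 hepatocyte markers, among them Alb, at 74.4, 21.5 and 22.7 against 104, 12.3 and 11.9 TPM. Of 10 macrophage markers the 3 C1q genes were called higher, while the list sum was 40203 to 52597 against 59565 to 74124 TPM. Most of that sum was Lyz2, which went the other way, at 29839, 37301 and 28336 against 66719, 70509 and 55343 TPM. The groups did not overlap in Lyz2, but its adjusted p was 0.115 in limma. Voom called Lyz2 lower and Fcgr1, Mertk and the C1q genes higher. Of 10 neutrophil markers Camp was called lower, with summed levels of 16241 to 20412 against 20412 to 23567 TPM, while the receptor gene Cxcr2, on mature neutrophils, was at 156, 147 and 214 against 80.3, 94.9 and 90.4 TPM (adjusted p = 0.0746 in limma). Limma called 0 of 8 T and NK cell markers (list sum 865 to 1057 against 1360 to 3471 TPM, with 2 lower unadjusted and 0 called by voom). It called 0 of 6 B and plasma cell markers (list sum 204 to 263 against 135 to 703 TPM, 0 unadjusted and 0 by voom). Of 8 stellate cell and fibroblast markers 2 passed the filter, and the list summed to 12.4 to 16.1 against 12.9 to 28.7 TPM. With 1 library dropped at a time, Trf was called in 0 of 6 fits (adjusted p from 0.0703 to 0.119 in limma) and Ccr7 in 0 of 6 (0.0577 to 0.117). Ly6c2 was called in 3 of them (up to 0.0950), Camp in 2 (up to 0.138), Cdh5 in 4 (up to 0.0864), Tek in 5 (up to 0.0662), Mcpt8 in 1 (up to 0.148) and Cpa3 in 2 (up to 0.128). The C1q genes, Kdr, Stab2, Clec4g, Eng and Prss34 were called in all 6. No marker was at 0 in any library, and the part of these cells in the level of Ier3 was not tested.

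**Figure D5:**
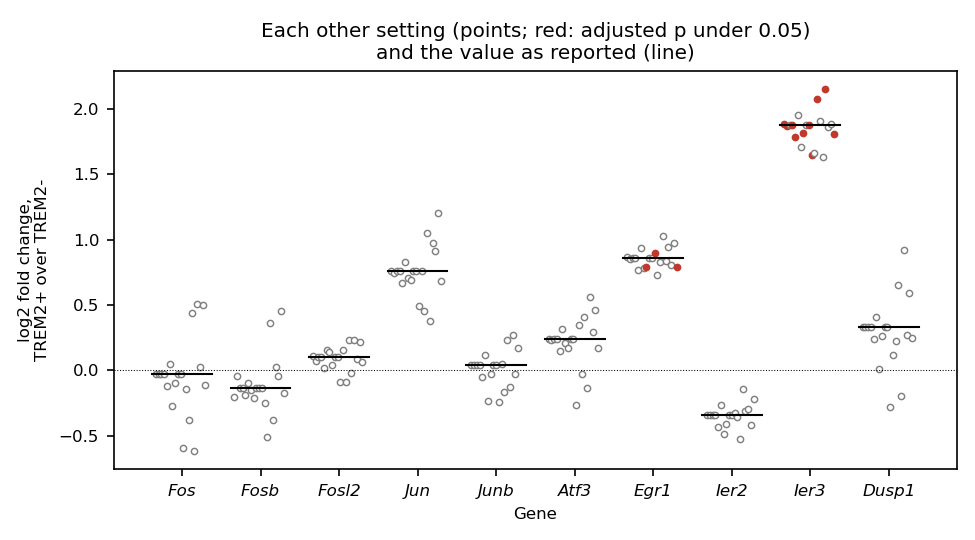
log2 fold change (TREM2+ over TREM2-) of each of the 10 genes as reported (line) and in each other setting of the processing (points; red marks an adjusted p under 0.05). Ier3 and Egr1 stay above 0 throughout, as does Jun without being called, Ier2 stays below 0, and Fos, Fosb, Fosl2, Junb, Atf3 and Dusp1 fall on both sides of 0.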

How the data were processed

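Messenger RNA was measured in 3 TREM2+ and 3 TREM2- libraries of mouse tumour macrophages. The authors deposited a length-scaled signal per gene, named as TPM, whose 6 columns together sum to 1000000. STAR 2.7.10a, Subread and featureCounts 2.0.3 with mm10 appear in the submitters' processing notes. The sources used here give no annotation, strand setting or formula. Because that signal is not scaled per library, each deposited column was rescaled to 1000000 here.

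Limma 3.58.1 (R 4.3.3) was fitted with a trend to log2(TPM + 1) of genes reaching 1 TPM in 3 or more libraries; tests were two-sided and adjusted by Benjamini-Hochberg over all genes, threshold 0.05. The error given with each log2 fold change is its standard error. Fold changes on that scale understate those of low genes. The fit was tested on simulated reads. Whole reads were recovered from the signal with exon lengths of GENCODE M21 (98.71% of 36994 matched rows above 0 were whole within 0.01 read). Junb and Ier2 did not come out whole, so depth and voom values leave them out. Cyr61 and Mkl1 are listed under their present symbols Ccn1 and Mrtfa.

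The 10 members and all lists were chosen with earlier results of these data known. Named were the 10 members, Trem2, up to 4 genes of each list with the smallest p, usual genes of the dissociation response, and the 5 genes most like Fos and Ier3. Other settings covered pseudocount, filter, scaling, a replicate block, trend, library weights, libraries left out and voom. The NF-kB motif, marker genes beyond the list sums, Chil3 and shares among the members were singled out after their values were seen. Promoter sequences are from RefSeq (GRCm38.p6), and 8 of the 10 members matched a printable entry. A result on other AP-1 family genes is not reported here.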

Additional observations from a re-analysis of the deposited data

How the results depend on the processing

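Depth, from 11545979 to 20034255 reads, did not limit the abundant members, while Fosb rested on as few as 65 reads. In place of 282 higher and 51 lower genes, limma called 31 lower at a pseudocount of 0.1, 95 higher and 3 lower with no low-value filter, 93 lower on the deposited values without rescaling, 97 lower with median-of-ratios scaling, 121 lower with quantile normalization, 82 lower without the repeat family and mitochondrial genes, 976 higher and 389 lower with library weights, and 448 higher and 173 lower with voom on recovered reads. Leaving out 1 library gave 109 to 310 higher and 12 to 94 lower genes, and leaving out both libraries numbered 3 gave 0 and 0 (1345 genes at an unadjusted p under 0.05).

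Of the 10 members, 0 were called with no filter, median-of-ratios scaling, quantile normalization, the replicate block or without both libraries numbered 3, 2 (Ier3 and Egr1) with library weights, voom or without the repeat family and mitochondrial genes, and 0 to 1 with 1 library left out. No member was called lower in any setting. Whether the replicate numbers pair the samples is not stated in the sources used here. Deviations from the group mean correlated at 0.19, -0.03 and 0.22 between same-numbered libraries and at -0.38 to 0.13 between the others. These few values cannot decide it. With the replicate number as a block, 116 genes were higher and 10 lower, and Ier3 had adjusted p = 0.109 in limma.

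None of the log2 fold changes that follow was called in either direction. That of Fos turned positive with median-of-ratios scaling (0.046) and without both libraries numbered 3 (0.50), and ranged from -0.62 to 0.50 with 1 library left out. That of Fosb was 0.45 without both libraries numbered 3 and from -0.51 to 0.36 with 1 left out. Junb fell on the other side of 0 on the deposited values (-0.053), with quantile normalization (-0.235), without the repeat family and mitochondrial genes (-0.029) and with library weights (-0.24), and ranged from -0.17 to 0.27 with 1 left out. Library weights also turned Fosl2 (-0.090), Atf3 (-0.27) and Dusp1 (-0.28), which ranged from -0.087 to 0.23, -0.14 to 0.56 and -0.20 to 0.92 with 1 left out. The cause was not tested.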
